A study of Mus musculus with 11 samples.

Results

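In serum-starved mouse fibroblasts, 64 genes differed at least 2-fold from WT in the same direction in both the Xap5 knockout and the Nono knockout. They stayed near WT in the Sox5 knockout. Of these, 33 were higher than WT in both lines and 31 were lower. The members were picked by measured values. Counts scaled to the library total (CPM) were averaged within each group and 0.5 was added. A gene then needed a mean of at least 3 CPM in some group, a ratio to WT of at least 2 in both Xap5 KO and Nono KO or of at most 0.5 in both, and a Sox5 KO to WT ratio between 0.71 and about 1.4. The table held 21684 genes, and 11139 reached the 3 CPM minimum. Among those, 411 genes (3.69%) passed the 2-fold limits in both lines, 221 higher and 190 lower. Of the 411, 319 (77.6%) lay outside the Sox5 KO band on the same side of WT, and 28 on the other side. The band then left the 64. The same limits applied to the other pairs of lines left 77 of 468 genes for Xap5 KO with Sox5 KO and 60 of 437 for Nono KO with Sox5 KO. All ratios share the WT libraries, and these counts were not tested against each other.

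The RNA came from NIH/3T3, an established line of mouse embryonic fibroblasts, kept for 24 h in medium without serum, a treatment known to bring out the primary cilium. The WT group gave 2 libraries. The Xap5 KO, Nono KO and Sox5 KO cells gave 3 libraries each, and all 4 groups had the same serum starvation. The study asked which genes the knockouts shift in common and which they shift singly. The labels name no clone, guide or knockout method, so a knockout and the line that carries it cannot be told apart. Nor do they say that replicates were separate cultures, so a p-value here measures the spread between these libraries, which may be technical.

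The gene that the labels call Xap5 carries the mouse symbol Fam50a and encodes a nuclear protein. NONO is an RNA- and DNA-binding protein of the DBHS family and a component of paraspeckles, nuclear bodies built on the long noncoding RNA Neat1. SOX5 is a transcription factor with an HMG box that lacks a transactivation domain of its own. Fibroblasts in quiescence secrete and remodel extracellular matrix.

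The targeted genes were low in the lines named for them. Fam50a stood at 66.8 to 69.1 CPM in WT and at 7.52 to 8.21 CPM in Xap5 KO, while it was at 44.0 to 46.6 CPM in Nono KO (66.6% of WT) and at 98.2 to 118 CPM in Sox5 KO (158%). Nono stood at 373 to 381 CPM in WT and at 26.2 to 32.4 CPM in Nono KO, and was at 119% of WT in Xap5 KO and 114% in Sox5 KO. Sox5 stood at 48.8 to 53.0 CPM in WT and at 12.4 to 13.7 CPM in Sox5 KO, and it was also low in the other lines, 12.4 to 15.5 CPM with Xap5 lost and 6.69 to 8.33 CPM with Nono lost. Sox5 RNA was therefore low in all 3 lines, at 26.0% of WT in Sox5 KO itself, 27.6% in Xap5 KO and 14.5% in Nono KO. Library totals ran from 30205878 to 43498383 counts. All 11 fibroblast markers reached the 3 CPM minimum, and their sum ran from 26205 to 26447 CPM in WT, 20635 to 21038 in Sox5 KO, 19359 to 21107.5 in Xap5 KO and 46776 to 51597 in Nono KO. Fn1 made up 56.0% to 56.9% of that sum in WT and 27.5% to 31.6% in Sox5 KO, so the sum does not stand for the single markers. By the edgeR test used below, 7 of the 11 rose and 3 fell in Sox5 KO. In Xap5 KO 3 rose and 5 fell, and in Nono KO 8 rose and 0 fell. Summed epithelial markers stayed under 0.5 CPM in every library, with Krt8 and Krt18 at 0. Summed skeletal muscle markers, of which 1 of 9 reached the minimum and Myf5, Mymk and Myod1 were at 0, ran from 2.17 to 2.39 CPM in WT, 2.78 to 3.05 in Sox5 KO, 3.33 to 5.22 in Xap5 KO and 4.23 to 4.88 in Nono KO. Summed macrophage markers, 2 of 10 at the minimum and Tyrobp at 0, ran from 2.94 to 3.13 CPM in WT, 4.22 to 5.16 in Sox5 KO, 4.19 to 5.66 in Xap5 KO and 9.05 to 13.2 in Nono KO. Summed adipocyte markers, 1 of 8 at the minimum and Lep at 0, ran from 12.9 to 14.4 CPM in WT, 346 to 398 in Sox5 KO, 185 to 216 in Xap5 KO and 221 to 255 in Nono KO, and Lpl, the lipoprotein lipase gene, made up 84.8% to 99.98% of that sum. Summed cartilage and bone markers, 4 of 10 at the minimum and none at 0 throughout, ran from 448.1 to 448.5 CPM in WT, 168 to 203 in Sox5 KO, 212 to 237 in Xap5 KO and 254 to 282 in Nono KO, with Sox9 as the leading gene. Summed endothelial markers, 1 of 9 at the minimum with Emcn and Tie1 at 0 and led by Vwf, ran from 14.5 to 17.0 CPM in WT, 8.05 to 10.8 in Sox5 KO, 33.8 to 37.2 in Xap5 KO and 2.81 to 4.69 in Nono KO. Summed neural and glial markers, 2 of 10 at the minimum, ran from 39.4 to 42.1 CPM in WT, 2.17 to 2.86 in Sox5 KO, 22.1 to 36.6 in Xap5 KO and 28.1 to 30.1 in Nono KO. Map2 made up 29.2% to 31.4% of that sum in WT, 2.82% to 11.7% in Sox5 KO, 22.7% to 44.2% in Xap5 KO and 81.6% to 84.7% in Nono KO. The part of these markers in the member genes was not tested, and no listed marker is a member.

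Across the 33 higher members the median log2 ratio to WT was 1.60 with Xap5 lost, 1.73 with Nono lost and -0.05 with Sox5 lost. Across the 31 lower members it was -1.60, -1.69 and -0.16. The median over all genes that reached the minimum was -0.04, -0.18 and -0.10, so plain CPM sets the typical gene slightly below WT in Nono KO. With the TMM scaling used in the tests below, the median over tested genes was 0.00, -0.02 and -0.01. By the ratios of the rule, 11 members differed at least 4-fold in both lines, 7 higher and 4 lower. The 0.5 CPM added there makes the ratios of low-level genes less extreme, so this count depends on it. Levels were mostly modest: the median of each member's highest group mean was 18.6 CPM, against 49.0 for genes reaching the minimum. In 15 members the highest group mean was under 10 CPM, and in 12 it was over 100 CPM. In all 64 members the 6 Xap5 KO and Nono KO libraries lay together on one side of the 5 WT and Sox5 KO libraries, an arrangement also seen in 13.2% of the genes that reached the minimum. The selection on group means favours that arrangement.

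**Figure D1:**
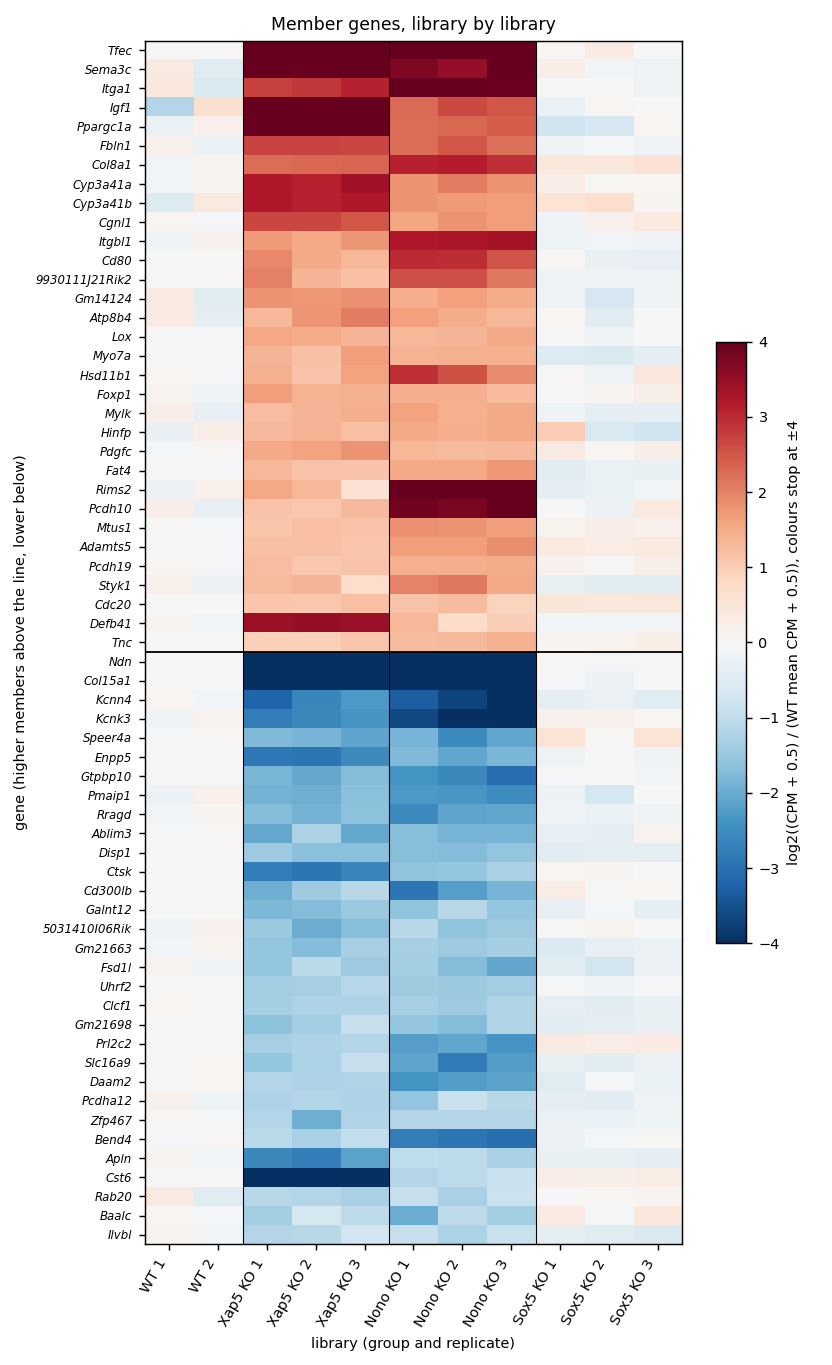
Each row is a member gene and each column a library. Colour gives the log2 ratio of the library's CPM plus 0.5 to the WT mean plus 0.5, and colours stop at 4 in either direction. The Xap5 KO and Nono KO columns are red for 32 of the 33 higher members and blue for the 31 lower members, while the WT and Sox5 KO columns stay pale; Sox5 KO replicate 1 of Hinfp is one of the darker cells there.

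All 64 members passed the expression filter of edgeR, which tested 13332 genes. Against WT, the quasi-likelihood test of edgeR, adjusted by Benjamini-Hochberg, called 63 members in Xap5 KO, where 45.5% of all tested genes were called, and all 64 in Nono KO, where 48.6% were. By direction these were 32 of the 33 higher members in Xap5 KO beside 23.2% of all genes called higher, and 31 of 31 lower members beside 22.3% called lower. In Nono KO they were 33 of 33 beside 23.5% and 31 of 31 beside 25.1%. In Sox5 KO 13 members were called, beside 60.9% of all genes, 9 of them higher (30.6% of all genes) and 4 lower (30.3%). These contrasts chose the members, so the counts are a description and nothing is read from them.

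The 4 most extreme members, 2 in each direction, were close to an on or off pattern. Tfec encodes a basic helix-loop-helix leucine zipper factor of the MiT/TFE family, whose relatives drive lysosomal and melanocyte genes. Its RNA was at 0 in both WT libraries and at 0.0305, 0.132 and 0 CPM in Sox5 KO, but reached 25.8, 30.7 and 30.1 CPM in Xap5 KO and 11.7, 10.7 and 10.7 in Nono KO. Set against a floor of 3 counts per WT library, the level of Tfec was at least 364-fold higher with Xap5 lost and at least 139-fold higher with Nono lost. The Sox5 KO values stand for 1, 4 and 0 counts, so Tfec was at the edge of detection there. Its relative Mitf was at 74.2 ± 0.475 CPM in WT (SD, n = 2), 42.0 ± 3.41 in Sox5 KO, 56.5 ± 2.87 in Xap5 KO and 40.01 ± 1.97 with Nono lost (SD, n = 3 each). Tfe3 was at 93.7 ± 0.5595, 96.8 ± 0.0985, 111 ± 2.504 and 61.6 ± 1.02 CPM in the same order, and Tfeb at 4.81 ± 0.399, 12.1 ± 1.86, 13.1 ± 1.58 and 6.704 ± 0.424 CPM. All 3 relatives were therefore expressed in WT, and in Xap5 KO and Nono KO their fold differences from WT were smaller than that of Tfec. In Sox5 KO, where Tfec was at the edge of detection, Tfeb was above WT and Mitf below it. Sema3c, a secreted class 3 semaphorin that guides migrating cells and axons, was at 1.72 and 0.748 CPM in WT, 1.59, 1.09 and 1.01 in Sox5 KO, 112, 112 and 91.6 in Xap5 KO, and 22.7, 19.4 and 28.2 in Nono KO. The Xap5 KO libraries were the highest, the Nono KO libraries lay clearly between, and WT and Sox5 KO overlapped.

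Ndn encodes necdin, a growth-restraining protein of the MAGE family made from an imprinted locus where the paternal allele is expressed. Ndn was at 39.3 and 36.8 CPM in WT and 38.3, 36.1 and 36.9 CPM in Sox5 KO, was not detected in any Xap5 KO library, and in Nono KO was at 0, 0.06897 and 0 CPM. Set against the floor, loss of Xap5 left the level at least 471-fold lower. In Nono KO 3 counts remained in a single library, a ratio of WT to Nono KO of 1570 with an exact counting interval of 537 to 7617. Of the other genes near Ndn on the imprinted list, Mkrn3 was at 4.72 ± 0.773 CPM in WT (SD, n = 2), 4.42 ± 1.66 in Xap5 KO and 1.94 ± 0.279 with Nono lost (SD, n = 3 each). Peg12 was at 8.399 ± 1.44, 10.3 ± 0.601 and 4.93 ± 0.237 CPM in that order, Snrpn at 5.34 ± 1.04, 7.08 ± 1.34 and 3.32 ± 0.473 CPM and Ube3a at 175 ± 0.813, 168 ± 11.8 and 144 ± 8.04 CPM. By edgeR's test none of the 4 was called against WT in Xap5 KO, while in Nono KO Mkrn3 (log2 fold change -1.11, adjusted p = 0.00181), Peg12 (-0.60, adjusted p = 0.00556) and Snrpn (-0.53, adjusted p = 0.0352) were lower. All 4 were still detected in both lines, unlike Ndn in Xap5 KO. In Sox5 KO, where Ndn was near WT, Snrpn was at 12.2 ± 0.487 CPM and Ube3a at 126 ± 11.9 CPM. There edgeR's test called Snrpn higher (log2 fold change 1.31, adjusted p = 9.72e-06) and Ube3a lower (-0.36, adjusted p = 0.000179), and Mkrn3 and Peg12 were not called. Col15a1, a collagen of basement membrane zones, was at 43.7 and 45.6 CPM in WT, 43.3, 38.1 and 45.1 in Sox5 KO, 0, 0.451 and 0 in Xap5 KO, and 0.0943, 0 and 0.315 in Nono KO. WT and Sox5 KO overlapped at about the same level, and the knockout values rest on 18, 4 and 12 counts in 3 of the 6 Xap5 KO and Nono KO libraries and on 0 in the others. Bulk RNA cannot tell fewer expressing cells from less RNA per cell for any of these genes.

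**Figure D2:**
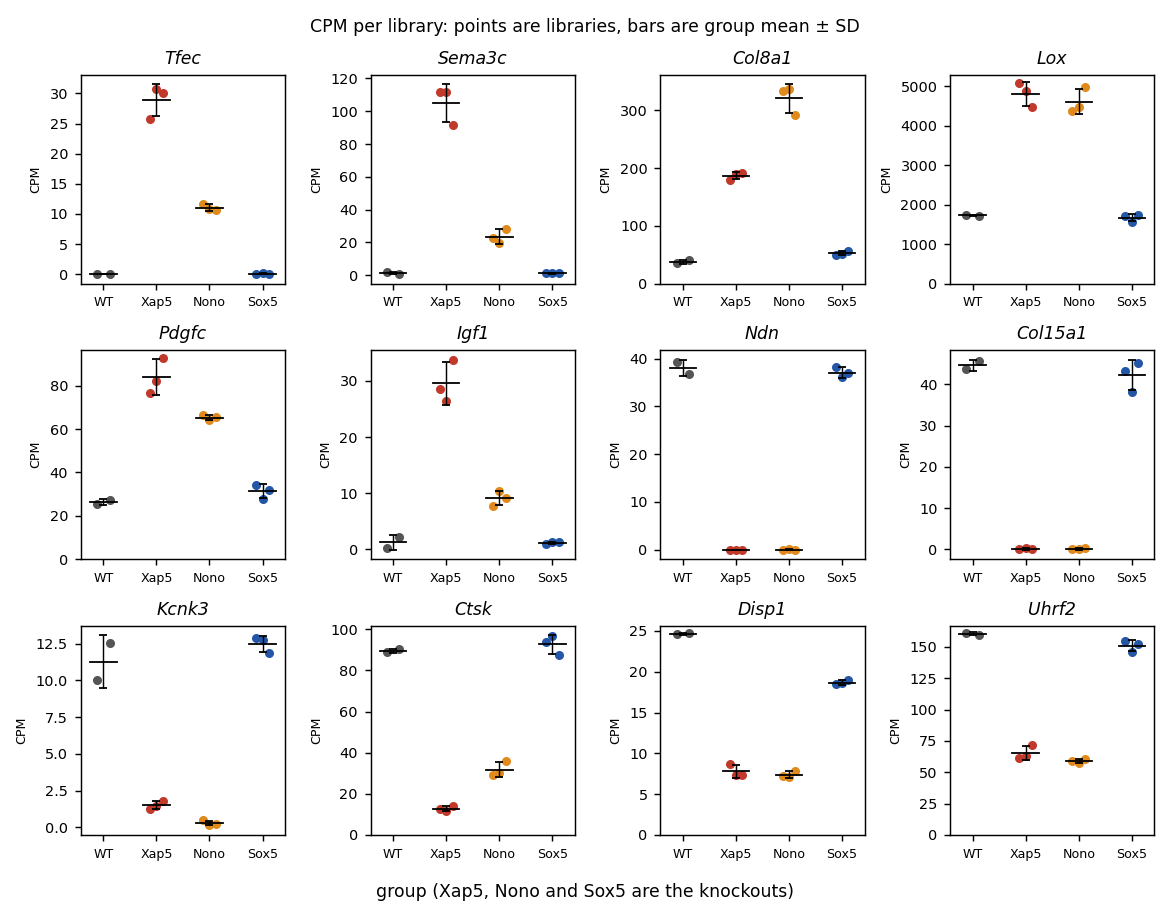
CPM of 12 members in each library, with group means and SD bars; WT has 2 points and each knockout 3. Tfec and Sema3c show their highest points in Xap5 KO and Col8a1 in Nono KO, Lox and Uhrf2 sit at like levels in both lines, and Ndn and Col15a1 lie near 0 in both lines while WT and Sox5 KO stay between 36.1 and 45.6 CPM.

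The promoter windows of these 4 genes are shown because they carry the sharpest contrasts and let their make-up be compared. They are RefSeq windows on GRCm38.p6, from 250 bases before to 50 after the annotated start, 300 bases each, at chr6:16898392-16898691 (minus strand) for Tfec, chr5:17574566-17574865 (plus) for Sema3c, chr7:62348027-62348326 (plus) for Ndn and chr4:47207762-47208061 (plus) for Col15a1. Capitals mark a match to any of 8 short motifs searched on both strands.
Tfec: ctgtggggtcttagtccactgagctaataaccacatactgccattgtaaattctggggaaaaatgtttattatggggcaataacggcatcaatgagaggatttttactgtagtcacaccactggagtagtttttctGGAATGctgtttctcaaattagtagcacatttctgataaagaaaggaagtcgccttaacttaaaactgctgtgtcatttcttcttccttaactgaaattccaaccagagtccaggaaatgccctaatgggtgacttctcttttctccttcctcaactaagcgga
Sema3c: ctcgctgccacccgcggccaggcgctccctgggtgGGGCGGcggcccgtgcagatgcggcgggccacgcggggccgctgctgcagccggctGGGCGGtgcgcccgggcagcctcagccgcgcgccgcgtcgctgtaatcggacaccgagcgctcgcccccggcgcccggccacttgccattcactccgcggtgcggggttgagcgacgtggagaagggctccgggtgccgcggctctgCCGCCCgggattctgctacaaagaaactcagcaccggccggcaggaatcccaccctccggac
Ndn: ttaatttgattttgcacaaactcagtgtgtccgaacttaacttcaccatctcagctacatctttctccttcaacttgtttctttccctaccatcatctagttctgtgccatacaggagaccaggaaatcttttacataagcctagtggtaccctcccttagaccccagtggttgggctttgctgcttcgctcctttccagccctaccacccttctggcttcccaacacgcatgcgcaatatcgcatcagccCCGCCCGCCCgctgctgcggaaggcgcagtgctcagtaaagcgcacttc
Col15a1: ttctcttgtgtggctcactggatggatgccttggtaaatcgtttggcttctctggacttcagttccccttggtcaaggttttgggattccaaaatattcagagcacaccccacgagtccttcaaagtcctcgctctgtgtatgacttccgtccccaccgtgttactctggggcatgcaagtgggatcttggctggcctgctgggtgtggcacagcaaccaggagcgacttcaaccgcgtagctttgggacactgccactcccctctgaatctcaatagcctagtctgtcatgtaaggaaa
The Tfec window held GGAATG, the core recognised by TEAD factors, at base 137 and had a GC share of 40.33% with 3 CpG sites. The Sema3c window held GGGCGG, the SP1 core, at bases 36, 92 and 239, the last on the opposite strand, with a GC share of 75.67% and 42 CpG sites. The Ndn window held overlapping SP1 cores on the opposite strand at bases 252 and 256, with a GC share of 51.0% and 11 CpG sites. The Col15a1 window held none of the 8 motifs, at a GC share of 52.33% and 8 CpG sites. The windows of the 2 higher genes thus differed widely in composition and shared no motif. Positions count from 1 at the 5′ end of the window.

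Of the 64 members, 47 had a promoter entry, 26 higher and 21 lower. A CpG observed to expected ratio over 0.6, the usual mark of a CpG island, was found in 13 of the 47 (27.7%), in 4 of 26 higher members (15.4%) and in 9 of 21 lower members (42.9%). The share was 69.9% over the 10396 tested genes with an entry and 36.4% over all 27025 entries. The median GC share was 55.0% in members, 60.67% in tested genes and 52.67% in all entries. GGGCGG was in 42.6% of members, against 62.9% of tested genes and 35.9% of all entries. GTTGCC, a half-site of RFX factors, was in 21.3% of members against 12.9% and 12.7%, but 4 of those 10 members are Speer4a, 5031410I06Rik, Gm21663 and Gm21698. AACAAT, the core bound by SOX proteins, was in 1 member (2.13%), Fbln1, against 5.77% and 10.9%. CCAAT, the NF-Y motif, was in 38.3% against 39.5% and 37.9%, and GGAATG was in 12.8% against 12.1% and 14.6%. TATAAA was in 10.6% against 7.44% and 14.2%. TGANTCA, the AP-1 site, was in 10.6%, all 5 of them higher members, against 5.1% and 7.93%. CACGTG, the E-box of MiT/TFE and other factors, was in 8.51% against 9.77% and 7.24%. None of the 8 motifs lies within another, and a match in such a window is not a binding site. These shares were not tested.

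Extracellular matrix genes and their enzymes stood among both the higher and the lower members. Lox encodes lysyl oxidase, which cross-links collagen and elastin, and was at 1741 and 1719 CPM in WT, 1723, 1562 and 1738 in Sox5 KO, 5085, 4866 and 4480.1 in Xap5 KO, and 4383, 4467 and 4968 in Nono KO. The lowest of the 6 Xap5 KO and Nono KO libraries was far above the highest of the 5 WT and Sox5 KO libraries, and the values of Xap5 KO and Nono KO overlapped. Tnc, a matricellular glycoprotein of healing tissue, had means of 146 ± 2.98 CPM in WT (SD, n = 2), and of 163 ± 7.28 in Sox5 KO, 295 ± 19.4 in Xap5 KO and 367 ± 22.8 in the Nono KO group (SD, n = 3 for each). Means of other genes below are given with the same errors and numbers. Fbln1, a fibulin of elastic fibres and basement membranes, was at 1.21 ± 0.347 CPM in WT, 1.07 ± 0.0508 in Sox5 KO, 10.6 ± 0.116 in Xap5 KO and 8.01 ± 0.909 in Nono KO. Col8a1, a short-chain collagen that forms networks, was at 35.3 and 40.6 CPM in WT, 50.6, 51.1 and 56.4 in Sox5 KO, 180.5, 190.2 and 191 in Xap5 KO, and 334, 338 and 292 in Nono KO. Its Nono KO libraries lay above all Xap5 KO libraries, and Sox5 KO also lay above WT, with a ratio of 1.38, close to the upper limit of the band. Adamts5, a protease that cuts aggrecan and versican, was at 116 ± 4.11 CPM in WT, 149 ± 6.002 in Sox5 KO, 259 ± 9.13 in Xap5 KO and 387 ± 27.9 in Nono KO.

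Ctsk encodes cathepsin K, a lysosomal cysteine protease that degrades collagen, and was at 88.7 and 90.3 CPM in WT, 93.9, 96.8 and 87.7 in Sox5 KO, 12.7, 11.6 and 14.3 in Xap5 KO, and 29.1, 30.2 and 36.03 in Nono KO. WT and Sox5 KO overlapped, Nono KO was lower, and Xap5 KO was the lowest. Cst6 encodes cystatin E/M, a secreted inhibitor of such proteases. It was at 9.102 and 9.02 CPM in WT, 11.1, 10.8 and 11.4 in Sox5 KO and 3.77, 4.12 and 4.65 in Nono KO, and only 4 counts were found over the 3 Xap5 KO libraries, a ratio of WT to Xap5 KO of 262 with a counting interval of 102 to 965. The 2 lines therefore differed far more in Cst6 than in Ctsk. Against WT, of the other 34 tested collagen genes, 7 rose and 14 fell in Xap5 KO (median log2 fold change -0.26), and 13 rose and 4 fell in Nono KO (0.36). Of the other 32 metalloproteinase and inhibitor genes, 12 rose and 11 fell in Xap5 KO (median log2 fold change -0.12), and 16 rose and 5 fell in Nono KO (0.40). Of the other 32 matricellular genes, 12 rose and 14 fell in Xap5 KO (median log2 fold change -0.27), and 19 rose and 9 fell in Nono KO (0.50). In these lists Nono KO had more genes higher than lower, while in Xap5 KO the counts in the 2 directions were closer or leaned lower.

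Secreted signals formed a second group. Igf1, the insulin-like growth factor made by fibroblasts and liver, was at 0.265 and 2.17 CPM in WT, 0.915, 1.32 and 1.196 in Sox5 KO, 28.6, 26.4 and 33.8 in Xap5 KO, and 7.78, 10.3 and 9.15 in Nono KO. The 2 WT libraries differed widely, so the ratios of 17.5 and 5.57 rest on an uneven baseline, and Igf1 left the member set when either WT library was left out. Pdgfc, a platelet-derived growth factor that signals to Pdgfra, was at 25.5 and 27.3 CPM in WT, 34.2, 27.9 and 31.8 in Sox5 KO, 76.8, 82.3 and 92.9 in Xap5 KO, and 66.3, 64.1 and 65.3 in Nono KO, with no overlap between Xap5 KO and Nono KO. The receptors Igf1r and Pdgfra were at 274 ± 9.29 and 941 ± 30.97 CPM in WT (SD, n = 2), 265 ± 2.69 and 868 ± 33.8 in Xap5 KO, 217 ± 8.52 and 825 ± 38.5 CPM with Nono lost, and 148 ± 5.18 and 425 ± 8.86 CPM in Sox5 KO (SD, n = 3 each). Both receptors were lowest in Sox5 KO. Of the other 62 tested growth factor and receptor genes, 21 rose and 17 fell in Xap5 KO (median log2 fold change -0.06), and 18 rose and 18 fell in Nono KO (-0.03). Defb41, a beta-defensin gene, had 3 counts in WT and 0 in Sox5 KO, and was at 5.33, 5.74 and 5.46 CPM in Xap5 KO and 0.848, 0.391 and 0.578 in Nono KO, ratios of 146 (counting interval 49.6 to 708) and 15.98 (5.26 to 79.2).

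Among the lower members, Clcf1, a cytokine of the interleukin-6 family, was at 55.3 ± 3.69 CPM in WT, 43.1 ± 1.62 in Sox5 KO, 22.4 ± 0.989 in Xap5 KO and 21.8 ± 2.16 in Nono KO. Its values in the 2 lines overlapped. Of the other 85 chemokine and cytokine genes, 20 rose and 16 fell in Xap5 KO (median log2 fold change 0.13), and 20 rose and 14 fell in Nono KO (0.02). Apln, the peptide hormone apelin, was at 24.1 ± 2.72 CPM in WT, 19.4 ± 0.455 in Sox5 KO, 3.94 ± 0.997 in Xap5 KO and 10.8 ± 1.21 in Nono KO. Prl2c2, a proliferin of the prolactin family that 3T3 cells secrete, was at 2629.9 and 2714 CPM in WT, 3456, 3266 and 3325 in Sox5 KO, 1059, 1138 and 1179 in Xap5 KO, and 584, 631 and 525 in Nono KO, and Sox5 KO lay above WT. Its near copy Prl2c3 was at 542 CPM in WT, 1147 in Sox5 KO, 207 in Xap5 KO and 89.1 in Nono KO, so reads shared between the copies leave both counts uncertain. Disp1 encodes the membrane protein that releases lipid-modified Hedgehog ligands from the cell that makes them, and was at 24.6 and 24.7 CPM in WT, 18.5, 18.6 and 18.98 in Sox5 KO, 8.74, 7.34 and 7.35 in Xap5 KO, and 7.19, 7.06 and 7.86 in Nono KO. Xap5 KO and Nono KO overlapped, and Sox5 KO lay between them and WT, at a ratio of 0.762. Of the other 23 Hedgehog genes, 6 rose and 5 fell in Xap5 KO (median log2 fold change 0.01), and 5 rose and 10 fell in Nono KO (-0.34). Sema3c stood on the axon guidance list, where of the other 53 genes 15 rose and 23 fell in Xap5 KO (median log2 fold change -0.28), and 18 rose and 21 fell in Nono KO (-0.14).

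Of the members on the cadherin list 3 were higher and 1 lower, and both on the integrin list were higher. Fat4, a giant atypical cadherin of planar cell polarity, was at 167 ± 6.3005 CPM in WT, 132 ± 8.76 in Sox5 KO, 389 ± 30.1 in Xap5 KO and 507 ± 46.4 in Nono KO. Pcdh19 was at 42.4 ± 3.74 CPM in WT, 47.2 ± 3.25 in Sox5 KO, 95.1 ± 4.76 in Xap5 KO and 117 ± 2.19 in Nono KO. Pcdh10, like Pcdh19 a non-clustered protocadherin of the delta group, was at 1.91 and 1.09 CPM in WT, 1.52, 1.19 and 2.14 in Sox5 KO, 3.85, 3.71 and 4.41 in Xap5 KO, and 28.6, 26.6 and 33.5 in Nono KO. Its Nono KO values stood far above the rest, and its Xap5 KO values were near the 2-fold limit. The clustered Pcdha12 was lower, at 14.5 ± 2.52 CPM in WT, 11.3 ± 1.096 in Sox5 KO, 6.002 ± 0.143 in Xap5 KO and 6.14 ± 1.54 in Nono KO. Its count is uncertain because the annotation gives its transcripts exons in common with other Pcdha genes. Among those, Pcdha9 had means of 8.58 CPM in WT, 0.241 in Sox5 KO, 1.31 in Xap5 KO and 0.374 in Nono KO, below WT in every knockout line. Of the other 67 tested cadherin and protocadherin genes, 15 rose and 17 fell in Xap5 KO (median log2 fold change -0.16), and 12 rose and 16 fell in Nono KO (0.04). Itga1, the alpha subunit of a collagen-binding integrin, was at 0.926 and 0.217 CPM in WT, 0.579, 0.563 and 0.441 in Sox5 KO, 6.67, 7.12 and 8.64 in Xap5 KO, and 18.9, 18.1 and 15.6 in Nono KO, and Itgbl1, a secreted protein resembling the integrin beta subunit, was at 21.9 and 27.997 CPM in WT, 21.6, 23.1 and 22.8 in Sox5 KO, 82.7, 71.8 and 85.5 in Xap5 KO, and 235, 237 and 258 in Nono KO. For both genes all Nono KO libraries lay above all Xap5 KO libraries. Of the other 28 integrin and laminin genes, 7 rose and 10 fell in Xap5 KO (median log2 fold change -0.06), and 15 rose and 5 fell in Nono KO (0.72). Cgnl1, which encodes the junction protein paracingulin, was higher in Xap5 KO, at 21.6 ± 1.75 CPM in WT, 24.2 ± 4.49 in Sox5 KO, 135 ± 9.97 in Xap5 KO and 70.2 ± 5.77 in Nono KO.

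Genes of the cytoskeleton were on both sides. Mylk, the myosin light chain kinase of smooth muscle, was at 4.399 ± 1.412 CPM in WT, 3.45 ± 0.312 in Sox5 KO, 12.01 ± 1.06 in Xap5 KO and 13.5 ± 0.959 in Nono KO. Of the other 26 smooth muscle contractile genes, 18 rose and 4 fell in Xap5 KO (median log2 fold change 0.92), and 21 rose and 1 fell in Nono KO (1.46). In Sox5 KO 17 of those 26 rose and 3 fell (median 1.08), beside 30.6% and 30.3% of all tested genes. Mylk itself, at a ratio of 0.807, did not reach a call in Sox5 KO. Myo7a, an unconventional myosin, was at 20.3 ± 0.629 CPM in WT, 14.5 ± 1.203 in Sox5 KO, 55.1 ± 9.34 in Xap5 KO and 54.9 ± 0.215 in Nono KO. Mtus1, a microtubule-associated protein, was at 21.3 ± 1.203 CPM in WT, 24.8 ± 1.16 in Sox5 KO, 48.2 ± 1.97 in Xap5 KO and 74.1 ± 3.77 in Nono KO. Daam2, a formin that links Wnt signals to actin, was lower, at 117 and 128 CPM in WT, 87.6, 118 and 102 in Sox5 KO, 54.5, 52.2 and 52.5 in Xap5 KO, and 23.2, 25.9 and 27.3 in Nono KO. The libraries formed 3 levels, with WT and Sox5 KO overlapping at the top, Xap5 KO in the middle and Nono KO at the bottom. Ablim3, an actin-binding LIM protein, was at 3.0997 ± 0.118 CPM in WT, 2.69 ± 0.672 in Sox5 KO, 0.5804 ± 0.365 in Xap5 KO and 0.532 ± 0.0708 in Nono KO, the lowest highest group mean of all members.

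Genes of membrane transport and excitability were on both sides. Kcnk3, a potassium leak channel, was at 10.001 and 12.5 CPM in WT, 12.9, 12.7 and 11.8 in Sox5 KO, 1.24, 1.45 and 1.78 in Xap5 KO, and 0.471, 0.161 and 0.237 in Nono KO. Kcnn4, a calcium-activated potassium channel, was at 13.1 and 11.5 CPM in WT, 9.21, 10.3 and 8.62 in Sox5 KO, 0.905, 1.58 and 2.13 in Xap5 KO, and 0.801, 0.483 and 0 in Nono KO. Both were low in all 6 Xap5 KO and Nono KO libraries, and for both the Xap5 KO values lay above the Nono KO values without overlap. Of the other 91 tested ion channel genes, 15 rose and 21 fell in Xap5 KO (median log2 fold change -0.12), and 22 rose and 21 fell in Nono KO (-0.09). Slc16a9, of the monocarboxylate transporter family, was at 19.7 ± 1.63 CPM in WT, 15.8 ± 1.06 in Sox5 KO, 8.18 ± 1.86 in Xap5 KO and 3.45 ± 0.937 in Nono KO. Of the other 235 solute carrier genes, 48 rose and 58 fell in Xap5 KO (median log2 fold change -0.04), and 56 rose and 62 fell in Nono KO (-0.09). Atp8b4, of the lipid flippase family, was higher, at 2.01 ± 0.863 CPM in WT, 1.82 ± 0.437 in Sox5 KO, 7.91 ± 2.01 in Xap5 KO and 6.61 ± 0.771 in Nono KO. Rims2, a scaffold of the presynaptic release site, was at 0.0529 and 0.241 CPM in WT, 0, 0.0331 and 0.0944 in Sox5 KO, 1.37, 1.13 and 0.458 in Xap5 KO, and 11.9, 10.3 and 12.7 in Nono KO, and the third of its Xap5 KO libraries was not far above the higher WT library.

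Regulators of transcription and the cell cycle made up a further group. Ppargc1a, a coactivator that drives mitochondrial biogenesis, was at 0.318 and 0.627 CPM in WT, 0.060998, 0.0993 and 0.535 in Sox5 KO, 30.7, 32.98 and 41.8 in Xap5 KO, and 4.08, 4.28 and 4.76 in Nono KO. Xap5 KO was several-fold above Nono KO, and WT and Sox5 KO stayed under 1 CPM. Foxp1, a forkhead repressor, was at 16.5 and 13.4 CPM in WT, 15.3, 16.4 and 17.8 in Sox5 KO, 48.9, 39.8 and 41.4 in Xap5 KO, and 41.8, 41.4 and 36.8 in Nono KO, and the 2 lines overlapped. Of the other 44 genes on the list of positional transcription factors, 13 rose and 20 fell in Xap5 KO (median log2 fold change -0.20), and 8 rose and 20 fell in Nono KO (-0.26). Hinfp, the factor of histone H4 gene transcription, was at 7.54 and 11.3 CPM in WT, 19.5, 6.06 and 5.19 in Sox5 KO, 23.7, 25.5 and 22.3 in Xap5 KO, and 28.1, 26.6 and 28.5 in Nono KO. Its first Sox5 KO library stood near the Xap5 KO values and its other 2 below WT, so its place in the Sox5 KO band comes from averaging unlike libraries. It was the only member not called against WT in Xap5 KO (log2 fold change 1.39 ± 0.54 SE, adjusted p = 0.0727 in edgeR), and without the first Sox5 KO library it was no longer a member, while its Xap5 KO log2 fold change of 1.39 was then called, as it was without the third. Its Nono KO call was lost without any of 7 single libraries (both of WT, the first or second of Xap5 KO, and each of Nono KO), at log2 fold changes of 1.46 to 2.05.

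Uhrf2, a ubiquitin ligase that reads modified DNA and histones, was at 161 and 159.6 CPM in WT, 155, 146 and 153 in Sox5 KO, 61.4, 62.97 and 71.9 in Xap5 KO, and 59.3, 57.2 and 60.8 in Nono KO. Zfp467, a zinc finger factor known from bone and fat precursors, was at 16.1 ± 0.589 CPM in WT, 13.5 ± 0.368 in Sox5 KO, 5.74 ± 1.72 in Xap5 KO and 6.84 ± 0.0601 in Nono KO. Of the other 380 tested genes with a Zfp symbol, 43 rose and 80 fell in Xap5 KO (median log2 fold change -0.05), and 34 rose and 139 fell in Nono KO (-0.25). Bend4, a BEN domain gene, was at 3.44 and 3.64 CPM in WT, 1.42, 1.13 and 1.53 in Xap5 KO and 2.96, 3.34 and 3.68 in Sox5 KO, and 6 counts over the Nono KO libraries gave a WT to Nono KO ratio of 73.3 (counting interval 33.2 to 201). Cdc20 encodes the activator of the anaphase-promoting complex and was at 17.7 and 17.4 CPM in WT, 24.9, 23.8 and 24.2 in Sox5 KO, 38.7, 37.4 and 40.7 in Xap5 KO, and 39.1, 43.1 and 33.4 in Nono KO. Sox5 KO lay between WT and the other lines, at a ratio of 1.37 near the upper limit of the band. Of the other 26 tested G2/M genes, 25 rose and 1 fell in Xap5 KO (median log2 fold change 1.13), and 21 rose and 0 fell in Nono KO (0.65). In Sox5 KO 16 of them rose and 3 fell (median 0.49). Cdc20 was the only G2/M gene to meet the rule.

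Enzymes, small GTPases and receptors filled the rest. Hsd11b1, which regenerates active glucocorticoid inside cells, was at 1.03 and 0.892 CPM in WT, 1.01, 0.761 and 1.51 in Sox5 KO, 3.44, 2.76 and 3.93 in Xap5 KO, and 10.7, 8.12 and 4.94 in Nono KO. The cytochrome P450 genes Cyp3a41a and Cyp3a41b were at 12.5 ± 1.11 and 10.2 ± 0.537 CPM in Xap5 KO, 4.69 ± 0.616 and 3.46 ± 0.177 in Nono KO, and between 0.689 and 1.15 CPM on average in WT and Sox5 KO. They are near-identical neighbours, so their counts may be one signal. Enpp5, a membrane protein of the nucleotide pyrophosphatase family, was at 20.6 ± 0.235 CPM in WT, 19.2 ± 1.695 in Sox5 KO, 2.64 ± 0.437 in Xap5 KO and 5.26 ± 0.644 in Nono KO. Galnt12, which starts O-linked glycosylation, was at 13.04 ± 0.302 CPM in WT, 10.95 ± 1.402 in Sox5 KO, 3.76 ± 0.4901 in Xap5 KO and 4.602 ± 1.02 in Nono KO. Ilvbl, an acetolactate synthase-like enzyme, was at 85.5 ± 9.33 CPM in WT, 60.9 ± 3.46 in Sox5 KO, 42.4 ± 6.49 in Xap5 KO and 41.9 ± 5.53 in Nono KO, and its ratios of 0.499 and 0.493 were the nearest inside the lower limit. Rragd, a Rag GTPase that carries amino acid signals to mTOR, was at 25.6 ± 2.59 CPM in WT, 22.7 ± 0.921 in Sox5 KO, 7.3001 ± 0.677 in Xap5 KO and 5.07 ± 0.927 in Nono KO. Gtpbp10, a GTPase of mitochondrial ribosome assembly, was at 10.01 ± 0.406 CPM in WT, 9.72 ± 0.505 in Sox5 KO, 2.39 ± 0.327 in Xap5 KO and 1.16 ± 0.368 in Nono KO. Rab20 was at 5.33 ± 2.38 CPM in WT, 5.53 ± 0.232 in Sox5 KO, 2.05 ± 0.159 in Xap5 KO and 2.38 ± 0.449 in Nono KO, and its WT libraries, 7.01 and 3.64 CPM, differed by about as much as their mean did from the Xap5 KO mean. Without the first WT library edgeR called Rab20 in neither line, at log2 fold changes of -0.78 in Xap5 KO (adjusted p = 0.0577) and -0.45 in Nono KO (adjusted p = 0.281).

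Pmaip1 encodes Noxa, a death-promoting protein induced by p53, and was at 5.599 ± 1.22 CPM in WT, 4.47 ± 1.19 in Sox5 KO, 1.21 ± 0.187 in Xap5 KO and 0.682 ± 0.092000 in Nono KO. Of the 32 other tested MiT/TFE and lysosome genes, on whose list Tfec and Ctsk stood, 12 rose and 14 fell in Xap5 KO (median -0.11) and 7 rose and 18 fell in Nono KO (-0.19). Cd80, the T cell costimulatory ligand of antigen-presenting cells, was higher, at 1.03 and 1.06 CPM in WT, 1.098, 0.761 and 0.724 in Sox5 KO, 5.301, 3.93 and 3.36 in Xap5 KO, and 11.6, 11.4 and 8.28 in Nono KO. Cd300lb, a receptor of myeloid cells, was lower, at 8.86 and 8.83 CPM in WT, 11.1, 9.14 and 9.38 in Sox5 KO, 1.94, 2.96 and 3.82 in Xap5 KO, and 0.754, 1.54 and 2.05 in Nono KO. Both are immune genes, and their directions were opposite. The summed macrophage markers were above WT in all 3 knockout lines, but the sum does not stand for the single markers. Of the 4 tested, edgeR called 0 in Xap5 KO, 2 higher in Nono KO, and 1 higher and 1 lower in Sox5 KO. Cd68 made up 61.5% to 78.4% of the sum in WT and 11.5% to 25.7% in Nono KO. Styk1, a receptor-like kinase, was at 1.46 ± 0.399 CPM in WT, 1.001 ± 0.0846 in Sox5 KO, 3.79 ± 0.983 in Xap5 KO and 6.78 ± 1.503 in Nono KO, and Baalc, a membrane-associated protein of neural and blood precursors, was at 3.74 ± 0.281 CPM in WT, 4.51 ± 0.884 in Sox5 KO, 1.61 ± 0.473 in Xap5 KO and 1.08 ± 0.489 in Nono KO. Without the first WT library edgeR did not call Baalc in Xap5 KO (log2 fold change -1.1, adjusted p = 0.0595). The immunity-related GTPase gene 9930111J21Rik2 was at 0.188 ± 0.0412 CPM in WT, 0.105 ± 0.0147 in Sox5 KO, 1.53 ± 0.657 in Xap5 KO and 3.24 ± 0.641 in Nono KO, and the predicted gene Gm14124 at 2.05 ± 0.919 CPM in WT, 1.55 ± 0.4003 in Sox5 KO, 8.32 ± 0.285 in Xap5 KO and 6.91 ± 0.532 in Nono KO. Fsd1l, a fibronectin type III and SPRY domain gene, was at 13.6 ± 1.94 CPM in WT, 9.79 ± 1.75 in Sox5 KO, 5.02 ± 1.003 in Xap5 KO and 3.86 ± 1.08 in Nono KO. Speer4a, 5031410I06Rik, Gm21663 and Gm21698 were at 7.99, 7.76, 7.92 and 8.73 CPM in WT, and at 1.77, 2.04, 2.43 and 3.31 CPM in Xap5 KO and 1.44, 2.68, 2.74 and 2.80 CPM in Nono KO. These 4 genes lie on chromosome 5 and may share reads.

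The rule did not set Xap5 KO against Nono KO, but it used the means of these same libraries and put no upper limit on a shift from WT. How often and how far members differ between the lines is therefore shaped in part by the selection, and the shares below are a description. By the quasi-likelihood test of edgeR, adjusted by Benjamini-Hochberg over 13332 genes, 36 of the 64 members (56.2%) differed between the 2 lines, against 53.0% of all tested genes, a share near the background. Of the 36, 18 were higher in Xap5 KO (27.1% of all genes were) and 18 lower (25.9%). At least 2-fold differences were called in 22 members (34.4%), against 11.1% of all tested genes, and the median absolute log2 difference was 0.72 in members against 0.34 over all tested genes. These shares were not tested against each other. Among the 36, the shift from WT was larger in Nono KO for 22 and larger in Xap5 KO for 14. The call was made for 24 of 33 higher members (72.7%) and for 12 of 31 lower members (38.7%). Among members under 10 CPM in both lines, 4 of 6 higher and 8 of 24 lower members were called, and among the rest 20 of 27 and 4 of 7 were.

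**Figure D3:**
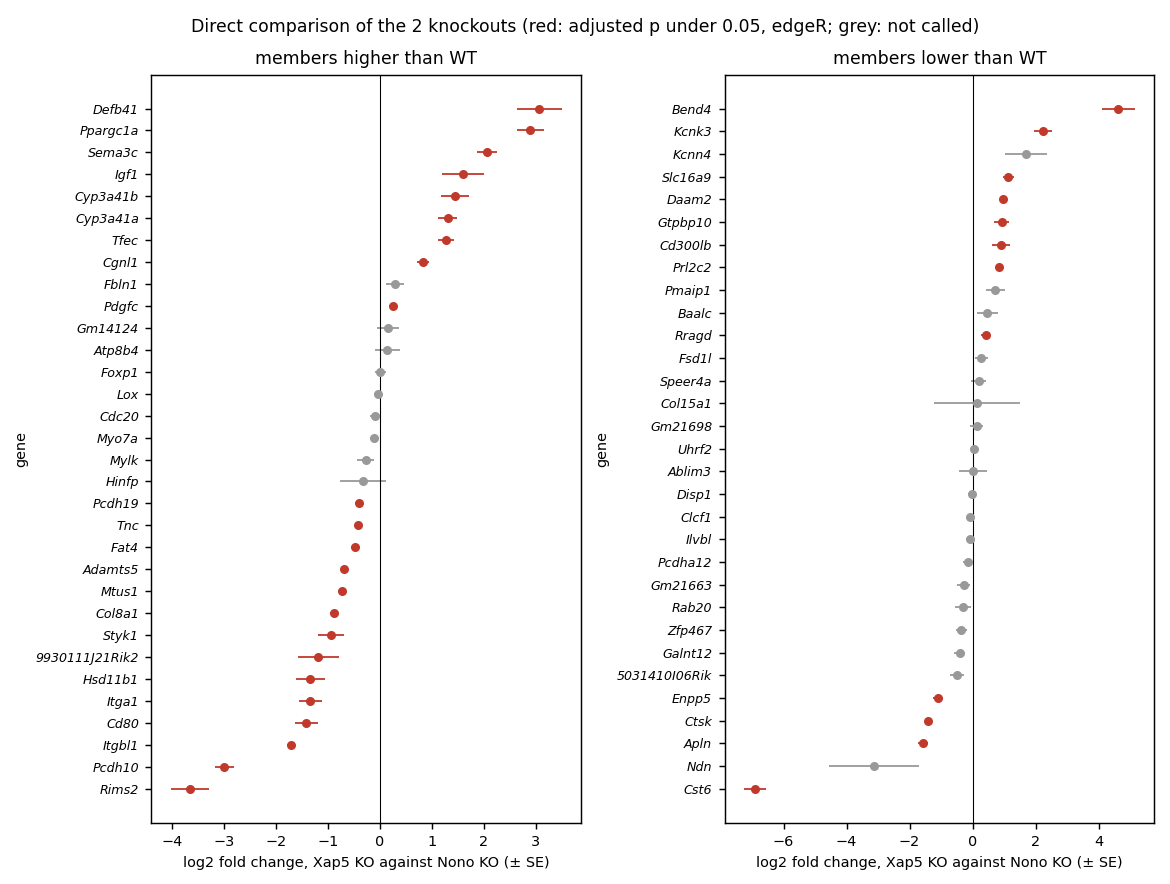
Log2 fold change of Xap5 KO against Nono KO with its SE, for 32 of the 33 higher members on the left and the 31 lower members on the right; red points have an adjusted p under 0.05 in edgeR. Higher members run from Rims2 at -3.66 to Defb41 at 3.07, lower members from Cst6 at -6.89 to Bend4 at 4.62, and grey points with long bars such as Ndn and Col15a1 have almost no counts in either line.

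The members that were farther from WT in Xap5 KO included several of the strongest. As log2 fold changes of Xap5 KO against Nono KO, Defb41 was 3.07 ± 0.43 (SE, adjusted p = 5.99e-06), Ppargc1a 2.895 ± 0.26 (SE, adjusted p = 5.21e-07) and Sema3c 2.06 ± 0.20 (SE, adjusted p = 1.37e-05) by the edgeR test. Igf1 was 1.59 ± 0.41 (SE, adjusted p = 0.011) and Tfec 1.28 ± 0.16 (SE, adjusted p = 8.83e-07). The neighbours Cyp3a41b and Cyp3a41a were 1.44 ± 0.26 and 1.304 ± 0.18, and Cgnl1 was 0.83 ± 0.11, all called. Among lower members, Cst6 was -6.89 ± 0.35 (SE, adjusted p = 9.98e-13), the largest difference of all members in absolute terms, followed on that side by Apln at -1.58 ± 0.15 (SE, adjusted p = 2.09e-08), Ctsk at -1.42 ± 0.09 (SE, adjusted p = 3.95e-11) and Enpp5 at -1.103 ± 0.15 (SE, adjusted p = 3.4e-06). The protease Ctsk and the inhibitor Cst6 were thus both lower in Xap5 KO than in Nono KO. Pdgfc differed little, at 0.25 ± 0.08 (SE, adjusted p = 0.00948), and without the third Xap5 KO library its difference of 0.17 was not called.

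The members that were farther from WT in Nono KO were led by Rims2 and Pcdh10. Rims2 was -3.66 ± 0.36 (SE, adjusted p = 1.35e-07), Pcdh10 -3.0 ± 0.19 (SE, adjusted p = 2.32e-11) and Itgbl1 -1.72 ± 0.08 (SE, adjusted p = 1.61e-12) in edgeR's test of Xap5 KO against Nono KO. Cd80 was -1.42 ± 0.22, Itga1 -1.35 ± 0.22, Hsd11b1 -1.34 ± 0.27 and 9930111J21Rik2 -1.19 ± 0.39, and all were called. Smaller called differences were those of Styk1 (-0.95 ± 0.25), Col8a1 (-0.89 ± 0.06), Mtus1 (-0.73 ± 0.07), Adamts5 (-0.69 ± 0.06), Fat4 (-0.49 ± 0.07), Tnc (-0.43 ± 0.06) and Pcdh19 (-0.41 ± 0.07). Among lower members, Bend4 was 4.62 ± 0.52 (SE, adjusted p = 2.15e-07) and Kcnk3 2.23 ± 0.30 (SE, adjusted p = 1.87e-06), and Slc16a9, Daam2, Gtpbp10, Cd300lb, Prl2c2 and Rragd were called with differences from 0.41 to 1.13. Some of these calls hung on single libraries. The gene 9930111J21Rik2 was not called when the second or the third Xap5 KO library or the first or second Nono KO library was left out (log2 -0.98 to -1.11). Rragd was not called without the first or the third Xap5 KO or the first Nono KO library (0.26 to 0.37), and Cd300lb without the third Xap5 KO or the first Nono KO library (0.65 and 0.58). Both also lost the call when edgeR was fitted to the Xap5 KO and Nono KO libraries alone, at 0.41 (adjusted p = 0.0865) for Rragd and 0.89 (adjusted p = 0.0701) for Cd300lb.

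For 28 members the test found no difference between the lines, and for some of them the estimate was tight. Lox was -0.05 ± 0.07 (SE, adjusted p = 0.578), Uhrf2 0.03 ± 0.06 (SE, adjusted p = 0.653), Disp1 -0.02 ± 0.12 (SE, adjusted p = 0.887) and Foxp1 0.01 ± 0.10 (SE, adjusted p = 0.973) in that edgeR test, and Clcf1 was -0.07 ± 0.08, Cdc20 -0.10 ± 0.09 and Myo7a -0.11 ± 0.09. For these 7 genes the SE was at most 0.12 on the log2 scale. A missed threshold does not show equal levels: without the third Xap5 KO library Myo7a was called at -0.25. For Ndn (-3.12 ± 1.43 (SE, adjusted p = 0.075)) and Col15a1 (0.15 ± 1.37 (SE, adjusted p = 0.943)) the wide errors reflect near-absent counts, and these fitted values are no measure of fold. Kcnn4 (1.69 ± 0.67 (SE, adjusted p = 0.0638)) and Galnt12 (-0.41 ± 0.18 (SE, adjusted p = 0.0631)) were near the threshold. Kcnn4 was called at 2.46 without the first and at 1.14 without the third Nono KO library, and Galnt12 between -0.49 and -0.51 without the third Xap5 KO, the first or the third Nono KO library. Zfp467 was called at -0.55 and -0.48 without the first or the third Xap5 KO library, and 5031410I06Rik at -0.70 without the first Xap5 KO and -0.62 without the second Nono KO library. Hinfp was called at -0.33 without the first Sox5 KO library, and Ndn, on its 3 counts, without the first or the third Nono KO library.

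**Figure D4:**
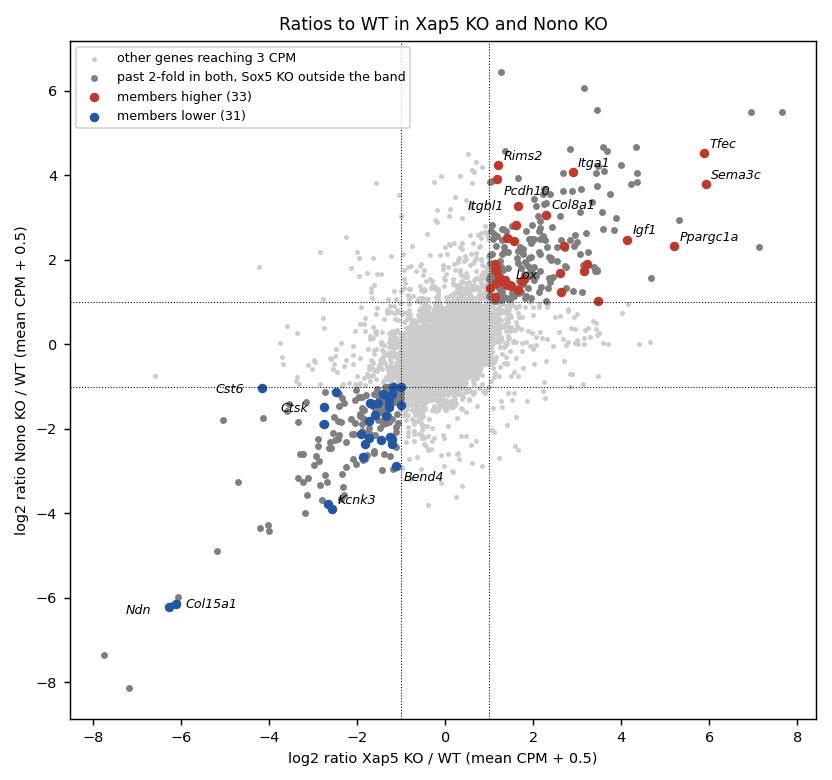
Log2 ratio to WT in Xap5 KO (horizontal) and in Nono KO (vertical), on group mean CPM plus 0.5, for the 11139 genes that reached 3 CPM in some group; dotted lines mark the 2-fold limits. The 33 higher members (red) and 31 lower members (blue) lie in the outer corners by selection, among the dark grey genes whose Sox5 KO ratio fell outside the band; both axes share the 2 WT libraries.

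In Sox5 KO the members ran from a log2 ratio of -0.48 to 0.48 among the higher members and from -0.49 to 0.39 among lower members, as the band requires. The 9 members higher than WT there by edgeR's test were Tfec, Col8a1, Pdgfc, Mtus1, Adamts5, Pcdh19, Cdc20, Tnc and Prl2c2. The 4 lower were Myo7a, Fat4, Clcf1 and Ilvbl. All 3 comparisons with WT share its libraries. The log2 fold changes were 0.59 for Col8a1, 0.58 for Cdc20, 0.48 for Adamts5 and 0.44 for Prl2c2, and -0.38 for Myo7a and -0.37 for Ilvbl. Tfec had 5 counts in Sox5 KO against 0 in WT, so its fitted value is no measure of fold. Of the 13 calls, 7 were lost under none of the alternatives, and 6 were lost when single libraries were left out. Tfec was not called without either WT library or the second Sox5 KO library, Fat4 without either WT or the first Sox5 KO library, Clcf1 without the first WT or the second Sox5 KO library, Ilvbl without the first WT library, and Mtus1 and Pcdh19 without the second WT library (log2 fold changes of -0.17 to -0.27 in the lower and 0.18 to 0.27 in the higher genes other than Tfec). Another 13 members were called under some alternative, among them Igf1, which was lower without the first WT library (-0.82) and higher without the second (2.21). These values are description only.

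By the GENCODE M21 annotation of GRCm38, chromosome 5 held 11 members, 4 higher and 7 lower, which is 17.2% of members beside 6.38% of the genes that reached the minimum. Of these, Cyp3a41a and Cyp3a41b are one pair of copies, and Speer4a, 5031410I06Rik, Gm21663 and Gm21698 may share reads. Chromosome 4 held 6 members (9.38% beside 6.20%), chromosome 12 held none, and every other autosome held 1 to 4. Members that lie next to each other in gene order were Galnt12 with Col15a1 (both lower, chromosome 4), Speer4a with 5031410I06Rik (both lower, chromosome 5) and Cyp3a41b with Cyp3a41a (both higher, chromosome 5). The drop of Col15a1 was much deeper than that of Galnt12, whose ratios to WT were 0.314 and 0.377. Exons of 21 members overlapped those of another annotated gene, mostly on the opposite strand, among them Lox, Foxp1, Fat4, Tnc, Cdc20 and Col15a1. The use of strand in the counting was not given, so such counts are uncertain.

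The ratios at the limits of the rule include the added 0.5 CPM. Tnc (2.02 in Xap5 KO), Defb41 (2.05 in Nono KO) and Cdc20 (2.16 in Nono KO) were just inside the upper limit. From counts alone the Defb41 ratio in Nono KO was 15.98. Kif26b (1.995 in Nono KO), Pdlim5 (1.97 and 1.99) and Ptger4 (1.96 in Nono KO) were just outside. Kif26b encodes a kinesin-like protein of cell polarity and Pdlim5 a scaffold of actin filaments. On the lower side Ilvbl (0.499 in Xap5 KO), Baalc (0.497 in Xap5 KO) and Rab20 (0.494 in Nono KO) were just inside. Slc6a15 (0.508), Cpe (0.509) and Map2k6 (0.515) were just outside, each in Xap5 KO. Cpe, the prohormone-processing carboxypeptidase E, was at 2810.5 CPM in WT and 2828 CPM in Sox5 KO, against 1430.3 in Xap5 KO and 1259.7 in Nono KO. In the Sox5 KO band, Cyp3a41b (1.39), Col8a1 (1.38) and Cdc20 (1.37) were just inside the upper edge, and Ak5 (1.414), Tfb1m (1.44) and Ctsf (1.45) just outside. At the lower edge Ilvbl (0.714), Myo7a (0.717) and Fsd1l (0.733) were inside, and Notch1, Wasf3 and Fibin (each 0.699) outside. At the level minimum Ablim3 (3.10 CPM), 9930111J21Rik2 (3.24) and Bend4 (3.54) were inside, and H4c14 (2.88), Hoxb9 (2.62) and Rtl9 (2.58) outside. Notch1, the receptor, would thus have been a lower member with a slightly wider band.

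How firmly a gene belonged to the set varied. Under 18 other settings of scaling, constant, minimum, band and libraries, 24 members, 12 in each direction, met the rule every time. The higher ones included Sema3c, Fbln1, Cyp3a41a, Cgnl1, Itgbl1, Cd80, Lox, Foxp1, Pdgfc, Mtus1 and Pcdh19. The lower ones were Ndn, Col15a1, Kcnk3, Enpp5, Gtpbp10, Rragd, Ctsk, Galnt12, Uhrf2, Slc16a9, Daam2 and Zfp467. With TMM-scaled libraries the set had 68 genes, of which 54 were shared. The 10 lost were Cdc20, Baalc, Cst6, Rab20, Ablim3, Ilvbl, Apln, Col8a1, Speer4a and Cyp3a41b. Without the first WT library 10 of the 64 were lost, and without the second 12 were lost. Tfec stayed in all settings but the constant of 0.1, at which its Sox5 KO ratio left the band.

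Of 27 lists of pathways and families, 17 held a member, and 26 members stood on a list while 38 stood on none. No member was among the 78 tested primary cilium genes, of which 15 rose and 20 fell in Xap5 KO (median log2 fold change -0.04) and 14 rose and 18 fell in Nono KO (-0.08). None was among the HOX, BMP and TGF-beta, Wnt, Notch, interferon-stimulated, proteoglycan, Sox family, paraspeckle or immediate-early lists. Of the 13 paraspeckle and DBHS genes, 3 rose and 4 fell in Xap5 KO (-0.13), and 2 rose and 5 fell in Nono KO (-0.10). Of the 31 other tested imprinted genes, 5 rose and 9 fell in Xap5 KO (-0.05), and 5 rose and 12 fell in Nono KO (-0.22). Ndn was the only imprinted gene among the members.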

How the data were processed

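RNA-seq was run on serum-starved NIH/3T3 cells, and libraries were grouped by the genotype in the labels. The authors deposited 1 table of estimated counts per gene, per the file headers and values: whole numbers in which 1 occurs 857 times and 2 occurs 3302 times. The submitters' processing notes name HISAT2 2.1.0, StringTie 1.3.3b, DESeq2 1.12.4 and the build GRCm39 (mm39). Their roles, the annotation and the use of strand were not given in the sources used here. Rounding changed nothing, and all 11 sample columns were used. If read mates were counted separately, depths refer to mates.

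CPM was the count over the column total. The members, the gene lists and the test plan were chosen with earlier results of these data known. All 11 libraries entered a single fit in edgeR 4.0.16 (R 4.3.3, limma 3.58.1): TMM scaling, the expression filter (minimum count 10, total 15), 1 mean per group, the robust quasi-likelihood test and Benjamini-Hochberg adjustment over 13332 genes, with calls at an adjusted p under 0.05. Totals of 30205878 to 43498383 counts gave a median of 1002 counts per tested gene, and the common biological coefficient of variation was 10.57%. Floors (3 counts per library) and exact intervals (95%) cover counting error only. Replicates of a group differed beyond counting noise, with a mean chi-square of 9.52 to 35.22 per gene. In simulated data (12978 genes, Xap5 KO against Nono KO), 200 genes were set to change and all others had the same mean in every group. The simulated spread depended on expression level only. Of genes changed 1.5-, 2-, 4- and 8-fold, 66.67%, 89.58%, 90% and 89.58% were recovered, and 0.0469% of unchanged genes were called. In the real comparison 53.0% of tested genes were called, so these shares are no measure of its error.

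Genes were named by rule: the targeted genes, the 12 most shifted and 8 most expressed members in each direction, members on a list, the 5 members most different each way between Xap5 KO and Nono KO, and genes nearest the limits. The remaining members were added after their values were seen, for completeness (1 is not reported by name or drawn by row here), as were relatives, receptors and neighbours of members. Alternatives were DESeq2 1.42.0, other scalings, filters, constants and bands, a replicate block, and leaving out each library. GENCODE M21 and RefSeq are on GRCm38, while the processing notes name GRCm39. The only coordinates given are therefore those of the printed promoter windows, on GRCm38.p6, and 17 members had no promoter entry.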

Additional observations from a re-analysis of the deposited data

How the results depend on the processing

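The number of members ran from 46 (a narrower Sox5 KO band, with a lower edge of 0.8) to 81 (minimum of 1 CPM), and was 49 with a minimum of 10 CPM, 61 and 67 with constants of 1 and 0.1, and 68 with TMM or DESeq2 size factors; leaving out single libraries gave 62 to 72, with at least 52 of the 64 shared, 31 to 39 higher and 30 to 34 lower. Members called between Xap5 KO and Nono KO numbered 36 with DESeq2, with its size factors in edgeR and without a filter, 35 on those libraries alone, 28 with at least 10 counts in every library, which tests fewer members, and 35 to 39 when single libraries were left out. Genes called over the whole table in that comparison ran from 6474 to 7026 when single libraries were left out, against 7071. Against WT the same ranges were 4627 to 6140 for Xap5, 5091 to 6610 for Nono and 6866 to 8232 for Sox5 loss. Over all member estimates of Xap5 KO against Nono KO under these alternatives, 1029 of 1074 counted as unchanged. That meant a call kept in the same direction, whatever its size, or no call in either fit and an estimate within the main SE. Of the rest, 12 lost a call, 15 gained one and 18 moved without a call. No called difference reversed. The labels do not say whether replicate numbers pair the samples. Deviations of same-numbered knockout libraries correlated between -0.0226 and 0.0247 over 9 pairs, against -0.0267 to 0.0131 over 18 other pairs. Between Xap5 KO and Nono KO the same-numbered pairs gave 0.0226, 0.0236 and 0.0247, against -0.0267 to 0.00384 for other numbers. The correlations were weak, and these ranges cannot show whether the numbers pair samples. With the replicate block the member count was 36 and the whole-table counts were 6987 for Xap5 KO against Nono KO, with 5916 (Xap5 loss), 6340 (Nono loss) and 7911 (Sox5 loss) against WT; among named members the block ended the Nono KO call of Hinfp (log2 fold change 1.83). Against WT, 1007 of 1012 member estimates were unchanged in that sense for Xap5 loss, 1003 for Nono loss and 958 for Sox5 loss. With Sox5 lost, 11 lost a call, 21 gained one and 22 moved without a call. At this depth Ndn and Col15a1, with at most 18 counts in any Xap5 KO or Nono KO library, give no usable estimate of the difference between those lines.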

Other observations

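Of the 411 genes at least 2-fold from WT in both Xap5 KO and Nono KO, 319 were outside the Sox5 KO band in the same direction. Only 28 were outside it with their Sox5 KO level on the other side of WT. The following were chosen after their values were seen, and their levels were not tested as a group. Col11a1, a fibrillar collagen of cartilage, had means of 1.98 ± 0.611 CPM in WT (SD, n = 2), 60.7 ± 3.33 in Nono KO and 17.3 ± 1.65 in Xap5 KO (SD, n = 3 each), and was at 0 in all Sox5 KO libraries. Hes1, a repressor induced by Notch, was at 5.09 ± 0.202, 14.2 ± 1.78, 14.9 ± 1.51 and 1.28 ± 0.229 CPM, where the values are those of WT and then of the Xap5, Nono and Sox5 lines. Zfpm2, a cofactor of GATA factors, was at 4.03 ± 0.175, 19.6 ± 0.869, 25.2 ± 1.88 and 0.253 ± 0.137 CPM in the same order. In the other direction, Csf2rb, the shared beta chain of cytokine receptors, was at 62.0 ± 6.05, 22.5 ± 3.04, 7.47 ± 1.71 and 361.8 ± 12.9 CPM. Ecel1, a membrane metallopeptidase of neurons, was at 11.4 ± 0.407, 0.237 ± 0.217, 0.0544 ± 0.0488 and 77.0 ± 2.99 CPM.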
